A study of Mus musculus with 6 samples.

Results

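The genes described are those of the fast and slow receptors for glutamate, GABA, glycine and acetylcholine (nicotinic type): the AMPA, kainate, NMDA and delta subunits (Gria, Grik, Grin, Grid), the metabotropic glutamate receptors (Grm), the GABA-A and GABA-B subunits (Gabr, Gabbr), the glycine receptor subunits (Glra, Glrb) and the nicotinic subunits (Chrn). The rule that chose them matches gene symbols and uses no measured value, and 68 of the 24421 genes in the count table matched. The cells were SVZ-derived neural stem cells of the C57BL/6 strain at postnatal day 60; the SVZ (subventricular zone) is a niche along the brain's ventricles that makes new neurons in adulthood. For all 6 libraries the cells were kept in FGF2 and EGF at 20 ng/ml each, and the medium was changed after 24 h. For 3 days, the cells of 3 libraries received 20 µM PluriSIn#2, a small molecule known for lowering transcription of the topoisomerase gene Top2a, and those of the other 3 received its solvent control, DMSO. No label ties the replicates to separate animals or separate cultures. The p-values therefore reflect the spread among these 6 libraries alone, and that spread may be technical.

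Ionotropic receptors are ion channels built from several subunits, and the mix of subunits sets what the channel passes and how fast it opens and closes. In AMPA receptors GluA2, made from Gria2, keeps calcium out of the channel. NMDA receptors need GluN1, made from Grin1, together with GluN2 or GluN3 subunits. GABA-A receptors commonly join alpha, beta and gamma subunits. Metabotropic glutamate receptors and GABA-B receptors signal through G proteins instead. In the subventricular zone, GABA and glutamate released by neighbouring cells are known to act on stem cells and neuroblasts.

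The libraries held between 16670962 and 19241869 counts. Receptor genes made up 0.147% to 0.150% of the counts in DMSO and 0.163% to 0.166% in PluriSIn#2. Top2a stood at 878 ± 21.2 CPM (counts scaled to the library total; SD, n = 3) in DMSO and 6.01 ± 1.29 in PluriSIn#2. The change was broad: 82.6% of the 14417 genes tested passed the threshold of 0.05 on the Benjamini-Hochberg adjusted p of edgeR's quasi-likelihood test, with 41.7% higher and 40.9% lower in PluriSIn#2. All adjusted p-values below come from that fit. Summed over its marker list, the neural stem cell level was 5581 to 5705 CPM in DMSO and 4257 to 4334 in PluriSIn#2. Of its 5 markers 4 fell, among them Nes (1187 to 437 CPM) and Fabp7 (1677 to 716), and Vim, which other cell types also express, rose (2669 to 3061).

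Of the 68 receptor genes, 63 had a read and 43 passed the filter on low counts. Among these 43, 24 were higher in PluriSIn#2, 13 were lower and 6 were not called, so 37 were called, a share to be read against 82.6% of all genes tested. CPM did not overlap between the groups for 38 of the 43, against 82.7% of all genes tested. The counts by family given below are to be read against 41.7% higher and 40.9% lower of all genes tested. The median log2 fold change of PluriSIn#2 over DMSO was 0.31 for the receptor genes and 0.01 for all genes tested. In limma on FPKM these medians were 0.068 and 0.042. Of the 24 receptor genes averaging at least 5 CPM, 11 were higher and 11 lower, with a median of -0.09 against -0.06 for all 11415 genes at that level. Of the 19 tested receptor genes under 5 CPM, 13 were higher and 2 lower, with a median of 0.89, beside 1545 higher and 564 lower of all 3002 genes tested at that level, with a median of 0.63. The filter bears on that last count, because 5 of them, including Gabrg3, Glra2, Grm7 and Grm8, had under 10 counts in a DMSO library and could pass through their PluriSIn#2 libraries alone.

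**Figure D1:**
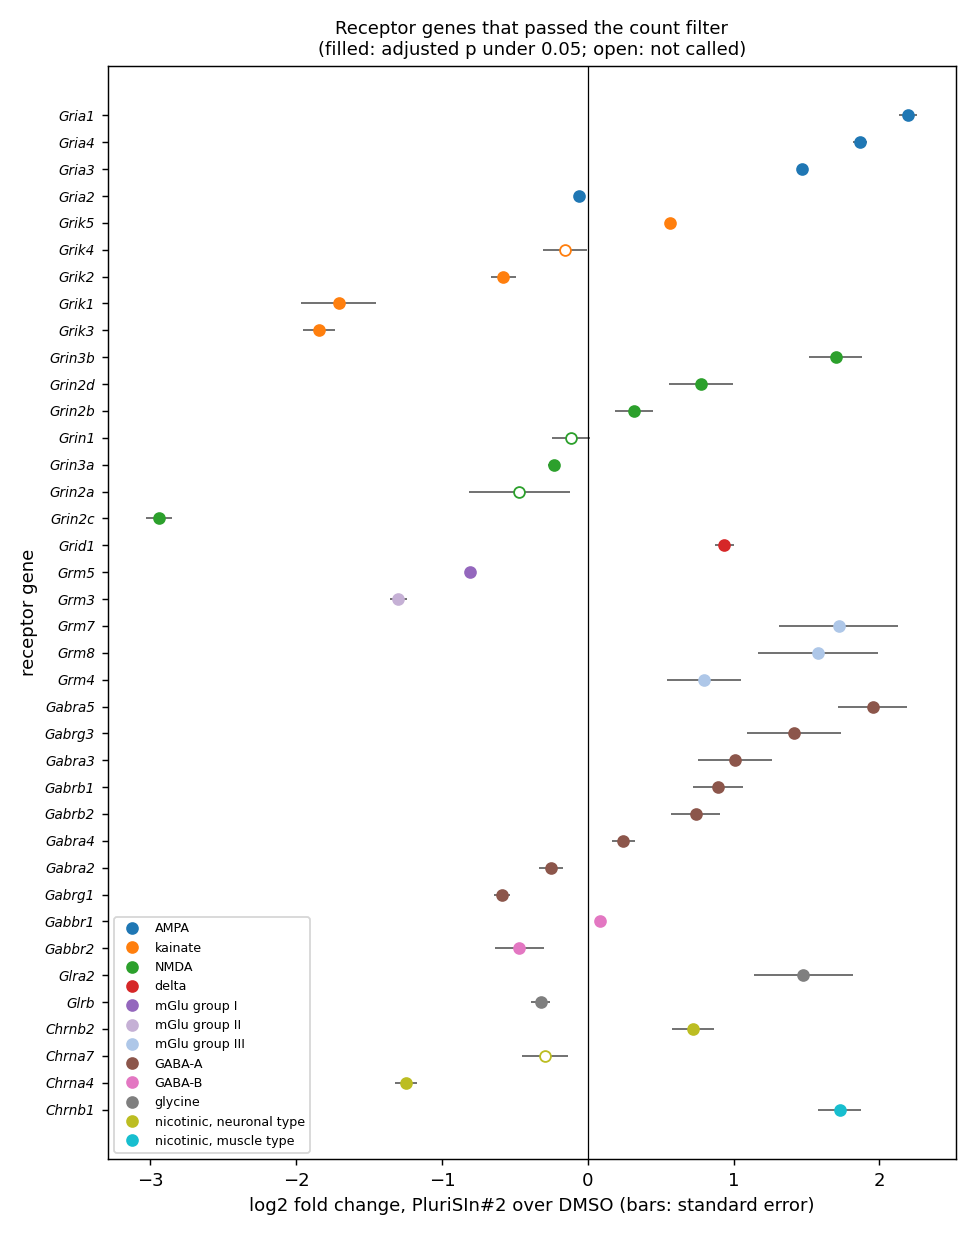
Log2 fold change of PluriSIn#2 over DMSO (horizontal axis) for 38 receptor genes that passed the filter (vertical axis), grouped and coloured by family; bars are standard errors, filled points were called and open points were not. Gria1, Gria3 and Gria4 lie far to the right of Gria2, and Grin2c lies farthest to the left at -2.94.

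**Figure D2:**
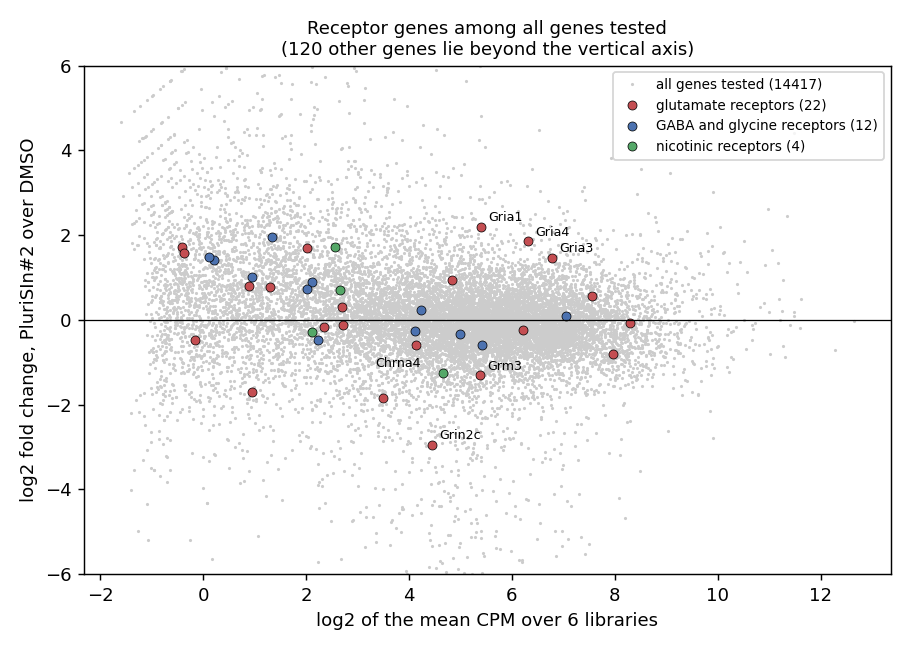
Log2 fold change (vertical axis) against log2 of the mean CPM over 6 libraries (horizontal axis) for all 14417 genes tested (grey) and 38 receptor genes (coloured by transmitter). Gria1, Gria3 and Gria4 sit above the bulk of genes at their level and Grin2c below it; 120 other genes lie beyond the vertical axis.

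To show the start regions of genes whose levels went different ways, the 250 bases before the RefSeq transcript start are printed for 5 of them, read 5′ to 3′ on the gene's strand from the GRCm38.p6 promoter table. They are Gria4, which rose, Gria2, which barely moved, and Grin2c, Grik3 and Gabrg1, which fell. The windows are chr9:4796235-4796484 (minus strand) for Gria4, chr3:80802836-80803085 (minus) for Gria2, chr11:115267244-115267493 (minus) for Grin2c, chr4:125490446-125490695 (plus) for Grik3 and chr5:70842618-70842867 (minus) for Gabrg1. Capitals mark the GC box GGGCGG, searched on both strands and so also as CCGCCC, with overlapping matches kept.
Gria4: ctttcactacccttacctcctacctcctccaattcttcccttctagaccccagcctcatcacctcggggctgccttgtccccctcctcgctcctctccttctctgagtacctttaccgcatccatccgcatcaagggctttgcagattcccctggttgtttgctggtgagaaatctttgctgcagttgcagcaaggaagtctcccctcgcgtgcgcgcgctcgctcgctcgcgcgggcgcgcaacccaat
Gria2: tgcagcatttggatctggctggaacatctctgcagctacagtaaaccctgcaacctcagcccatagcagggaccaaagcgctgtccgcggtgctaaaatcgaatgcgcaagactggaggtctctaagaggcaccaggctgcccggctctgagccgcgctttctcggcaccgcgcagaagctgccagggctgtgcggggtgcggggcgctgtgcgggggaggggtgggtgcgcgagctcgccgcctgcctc
Grin2c: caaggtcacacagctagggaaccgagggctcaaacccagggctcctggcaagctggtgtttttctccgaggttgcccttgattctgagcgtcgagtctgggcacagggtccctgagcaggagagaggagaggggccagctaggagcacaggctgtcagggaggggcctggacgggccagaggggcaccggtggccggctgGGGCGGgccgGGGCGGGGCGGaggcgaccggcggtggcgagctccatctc
Grik3: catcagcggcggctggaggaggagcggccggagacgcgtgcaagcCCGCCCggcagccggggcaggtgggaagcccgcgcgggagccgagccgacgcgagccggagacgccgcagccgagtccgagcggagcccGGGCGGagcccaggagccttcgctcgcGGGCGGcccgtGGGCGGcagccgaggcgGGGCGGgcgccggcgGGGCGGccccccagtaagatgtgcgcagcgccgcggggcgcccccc
Gabrg1: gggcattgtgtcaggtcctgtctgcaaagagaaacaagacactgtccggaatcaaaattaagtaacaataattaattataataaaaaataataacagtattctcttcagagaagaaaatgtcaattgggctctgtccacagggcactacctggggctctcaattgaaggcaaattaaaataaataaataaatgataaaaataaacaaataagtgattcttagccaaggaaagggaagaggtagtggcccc
Grik3 held 6 GC boxes and 42 CpG, and Grin2c held 3 boxes and 15 CpG. Neither AMPA window held a box, with 16 CpG for Gria4 and 19 for Gria2, and the Gabrg1 window held no box and 1 CpG. In the table, 48 receptor genes matched, with 56 windows, of which 26 (46.4%) held the box, against 10756 of 32851 windows (32.7%) over all genes. The median number of CpG was 8 in receptor windows and 6 in all windows. A match is a run of letters, not a measured binding site.

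Of the 4 AMPA receptor genes, 3 rose by 2.77-fold to 4.59-fold while Gria2, the most abundant of them in DMSO, stayed nearly level. Gria1 (GluA1; chr11:57011387-57330244, plus strand) measured 16.2, 14.8 and 14.5 CPM in the DMSO libraries and 70.5, 69.6 and 68.7 in PluriSIn#2. Every treated library was above every control, with a log2 fold change of 2.20 (SE 0.0604, adjusted p = 7.20e-52). Gria4 (GluA4; chr9:4417896-4796234, minus) measured 31.8, 31.7 and 38.8 CPM against 125, 124 and 124, a log2 fold change of 1.86 (SE 0.0473, adjusted p = 1.50e-54). The third DMSO library was the highest control and still lay far below the treated ones. Gria3 (GluA3; chrX:41400854-41678601, plus) measured 56.8, 60.6 and 57.6 CPM against 163, 162 and 160, a log2 fold change of 1.47 (SE 0.0377, adjusted p = 3.01e-54). Gria2 (chr3:80681450-80802835, minus) measured 311, 323 and 325 CPM in DMSO and 306, 308 and 304 in PluriSIn#2. Its log2 fold change of -0.06 (SE 0.0255, adjusted p = 0.0189) passed the threshold, but the sign turned to 0.006 on library totals and 0.005 on FPKM, both uncalled, and the call was lost without DMSO replicate 3 (adjusted p = 0.056).

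Per length of transcript, in FPKM (the authors' level scaled by gene length and depth), Gria2 made up 70.1%, 70.4% and 69.9% of the AMPA sum in the DMSO libraries and 40.4%, 40.7% and 40.6% in PluriSIn#2. The share fell by 29.5 percentage points without overlap between the groups. Over the same libraries the mean share went from 3.98% to 11.01% for Gria1, from 16.5% to 27.6% for Gria3 and from 9.39% to 20.7% for Gria4. The exact two-sided permutation p was 0.1 for each, the smallest that 3 libraries against 3 allow. The summed AMPA level was 63.8 ± 1.55 FPKM (SD, n = 3) in DMSO and 110.5 ± 0.691 in PluriSIn#2. With GENCODE exon lengths in place of the authors', Gria2 took 59.8% in DMSO and 29.2% in PluriSIn#2.

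**Figure D3:**
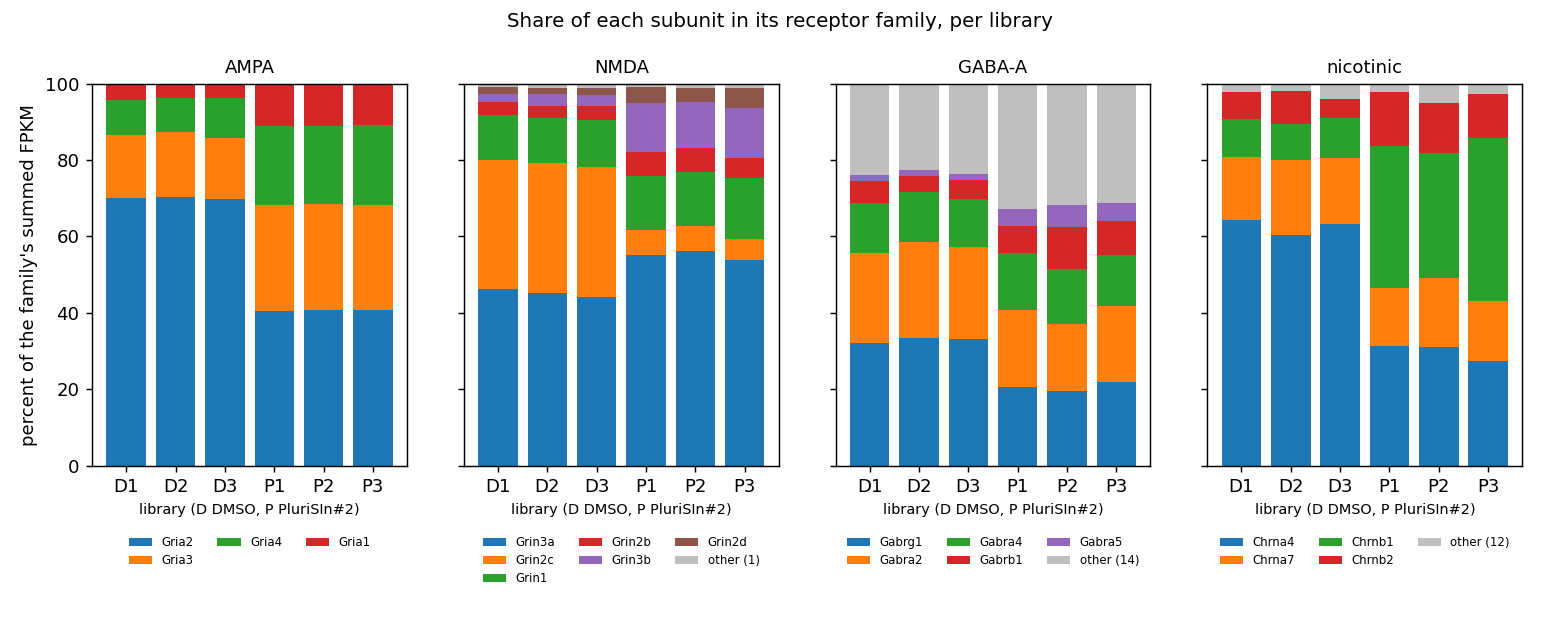
Percent of each family's summed FPKM (vertical axis) taken by each subunit gene in the 3 DMSO (D) and 3 PluriSIn#2 (P) libraries, for AMPA, NMDA, GABA-A and all nicotinic genes. Gria2 falls from about 70.1% to 40.6%, Grin2c from 34.0% to 6.32%, Gabrg1 from 32.9% to 20.6% and Chrna4 from 62.6% to 29.8%.

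Of the 5 kainate receptor genes, 3 were lower, 1 higher and 1 not called, beside 40.9% lower and 41.7% higher among all genes tested. Their summed level rose all the same, from 46.0 ± 0.948 FPKM (SD, n = 3) in DMSO to 63.6 ± 2.26 in PluriSIn#2. Grik3 (GluK3; chr4:125490700-125714173, plus) measured 17.3, 19.5 and 16.1 CPM in DMSO and 4.57, 5.49 and 4.63 in PluriSIn#2, a log2 fold change of -1.84 (SE 0.111, adjusted p = 1.83e-27). Grik1 (GluK1; chr16:87895900-88290265, minus) was low throughout, at 2.80, 2.70 and 3.41 CPM against 0.846, 0.987 and 0.879, a log2 fold change of -1.71 (SE 0.257, adjusted p = 5.43e-09). Both genes separated the groups completely. Grik2 (GluK2; chr10:49094833-49788766, minus) measured 20.06, 21.67 and 21.23 CPM against 16.36, 14.04 and 11.66, a log2 fold change of -0.58 (SE 0.0867, adjusted p = 4.76e-09). Grik5 (GluK5; chr7:25009849-25072346, minus), a subunit that forms channels only together with GluK1 to GluK3, measured 152, 155 and 147 CPM against 226, 229 and 216, a log2 fold change of 0.56 (SE 0.0304, adjusted p = 1.37e-30). The gene for the partner subunit therefore rose while the 3 genes for subunits that can form channels alone fell. Grik4 (GluK4), the other partner subunit, measured 5.10, 4.62 and 6.35 CPM against 4.74, 4.94 and 4.75, with overlapping groups and a log2 fold change of -0.16 (SE 0.15, adjusted p = 0.323). Grik5 took 82.0% of the kainate FPKM in DMSO and 92.0% in PluriSIn#2, and Grik3 4.14% and 0.874%.

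Among the NMDA receptor genes, 3 of 7 were higher, 2 lower and 2 not called, and the largest change of any tested receptor gene was here. Grin2c (GluN2C; chr11:115249169-115267243, minus) measured 38.8, 38.9 and 37.5 CPM in DMSO and 5.36, 4.99 and 4.63 in PluriSIn#2. That is 7.67-fold lower, a log2 fold change of -2.94 (SE 0.0893, adjusted p = 1.57e-48). Its share of NMDA FPKM went from 34.0% to 6.32%, or from 47.6% to 10.04% with GENCODE exon lengths. The obligatory subunit gene Grin1 (chr2:25291181-25319187, minus) measured 6.72, 7.15 and 6.56 CPM against 5.92, 5.82 and 7.15. These values overlapped, with a log2 fold change of -0.12 (SE 0.131, adjusted p = 0.411), and 13.5% of its exonic bases are shared with the antisense gene Grin1os.

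Grin3a (GluN3A; chr4:49661611-49845744, minus), which lowers calcium flow through NMDA receptors, had the highest FPKM of the NMDA genes in both groups. On GENCODE exon lengths, Grin2c took the larger share in DMSO (47.6% against 40.9% for Grin3a). Grin3a measured 83.2, 81.3 and 76.8 CPM against 69.7, 66.4 and 69.3, a log2 fold change of -0.23 (SE 0.0428, adjusted p = 9.00e-07). Its share of NMDA FPKM rose from 45.2% to 54.9% as Grin2c fell. Grin3b (GluN3B; chr10:79970715-79977190, plus) measured 1.40, 2.19 and 2.08 CPM against 6.26, 5.54 and 6.74, a log2 fold change of 1.70 (SE 0.181, adjusted p = 2.52e-14). However, 32.1% of its exonic bases overlap the antisense gene Tmem259, which measured 135.5 CPM in DMSO and 197.5 in PluriSIn#2. The sources used here do not give the strand setting of the counting, and the part of Tmem259 reads in the Grin3b count was not tested. Grin2d (GluN2D) measured 2.02, 1.75 and 1.65 CPM against 3.05, 2.52 and 3.75, a log2 fold change of 0.78 (SE 0.22, adjusted p = 9.34e-04). Grin2b (GluN2B) measured 5.71, 5.51 and 6.13 CPM against 7.79, 7.19 and 6.62, a log2 fold change of 0.31 (SE 0.131, adjusted p = 0.0231), a call lost in DESeq2 (adjusted p = 0.11) and without DMSO replicate 1 (0.0533), DMSO replicate 2 (0.0754) or PluriSIn#2 replicate 1 (0.108). Grin2a (GluN2A) was near 1.05 CPM in DMSO and 0.757 in PluriSIn#2 and was not called (log2 fold change -0.47, adjusted p = 0.202). Summed over the family, NMDA genes stood at 22.1 ± 0.496 FPKM in DMSO and 16.2 ± 0.732 in PluriSIn#2.

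The delta subunit genes encode relatives of these channels that bind cerebellins. Grid1 (GluD1; chr14:34820108-35583379, plus) measured 19.5, 21.1 and 18.5 CPM in DMSO and 36.6, 38.3 and 38.0 in PluriSIn#2, a log2 fold change of 0.94 (SE 0.0667, adjusted p = 4.03e-23).

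**Figure D4:**
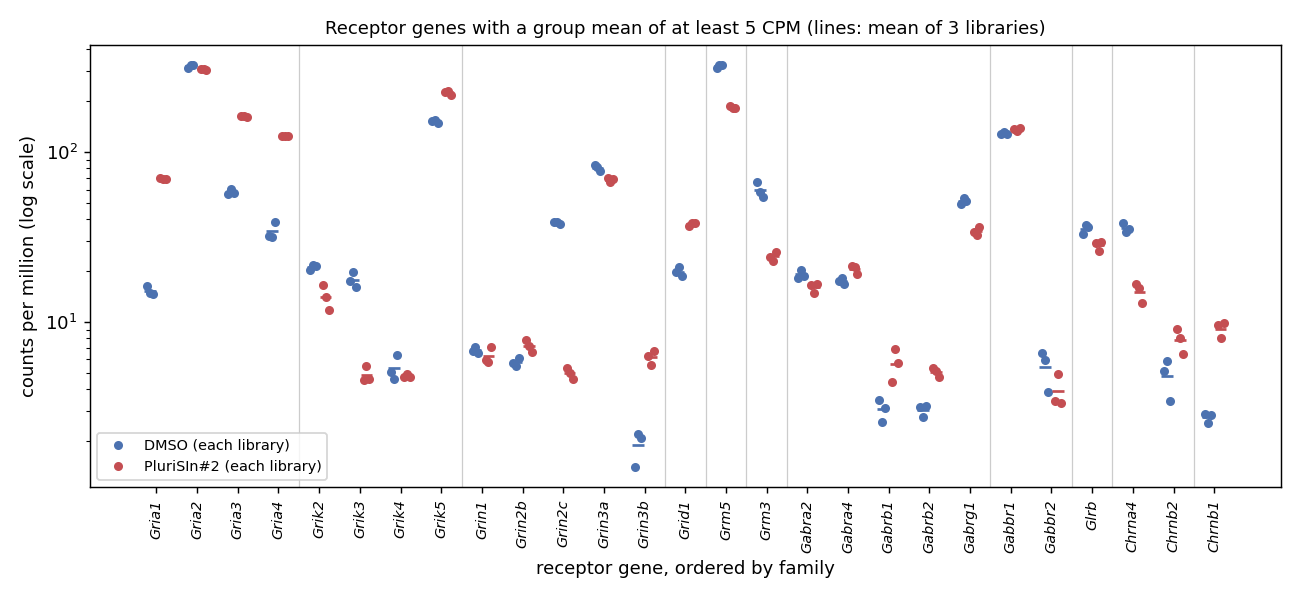
CPM in each library (vertical log axis; blue DMSO, red PluriSIn#2; lines are means of 3 libraries) for 27 receptor genes with a group mean of at least 5 CPM, ordered by family (horizontal axis). Points of the AMPA genes other than Gria2 separate widely, and those of Grik4, Grin1 and Gabbr2 overlap.

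Of the 6 tested metabotropic glutamate receptor genes, 3 rose, 2 fell and 1 was not called. The abundant genes of groups I and II, Grm5 and Grm3, fell, and the 3 tested genes of group III, all scarce, rose. Of these 3, Grm7 and Grm8 had under 10 counts in a DMSO library and could pass the filter through PluriSIn#2 alone. Among all genes tested under 5 CPM, 1545 were higher and 564 lower. Group and level therefore cannot be told apart here. Grm5 (mGlu5, coupled to phospholipase C; chr7:87584168-88134907, plus) measured 311, 323 and 323 CPM in DMSO and 185, 181 and 180 in PluriSIn#2, a log2 fold change of -0.81 (SE 0.0276, adjusted p = 1.00e-44). Grm3 (mGlu3, which lowers cyclic AMP; chr5:9485541-9725170, minus) measured 66.5, 58.0 and 54.3 CPM against 24.1, 22.9 and 25.7, a log2 fold change of -1.30 (SE 0.0608, adjusted p = 8.46e-35). Neither gene's groups overlapped. Grm4 (mGlu4) measured 1.34, 1.41 and 1.28 CPM against 2.03, 1.92 and 3.10, a log2 fold change of 0.80 (SE 0.253, adjusted p = 0.00294); without PluriSIn#2 replicate 3 the call was lost (0.55, adjusted p = 0.0806). Grm7 averaged 0.351 CPM in DMSO and 1.17 in PluriSIn#2 (log2 fold change 1.72), and Grm8 0.389 and 1.16 (1.58). Grm2 had 13 counts over the DMSO libraries and 29 over PluriSIn#2, and Grm6 had 1 and 4; neither passed the filter.

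GABA-A receptor genes were mostly scarce and mostly higher: of the 19 genes listed, 17 had a read, and of the 11 that passed 9 were higher and 2 lower. The 2 that fell were among the most abundant. Gabrg1 (gamma 1; chr5:70751047-70842617, minus) measured 49.3, 53.5 and 51.2 CPM in DMSO and 33.7, 32.6 and 36.3 in PluriSIn#2, a log2 fold change of -0.59 (SE 0.0552, adjusted p = 9.61e-17). Gabra2 (alpha 2; chr5:70957597-71095849, minus) measured 18.2, 20.2 and 18.5 CPM against 16.4, 14.8 and 16.6, a log2 fold change of -0.25 (SE 0.0826, adjusted p = 0.00406). The Gabra2 call was lost in limma on FPKM (adjusted p = 0.0506) and with PluriSIn#2 replicate 1 alone (0.104). Gabra4 (alpha 4) measured 17.3, 18.2 and 16.6 CPM against 21.3, 21.1 and 19.2, a log2 fold change of 0.24 (SE 0.0791, adjusted p = 0.00369). These 3 genes were among the most abundant of the family per length.

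The scarcer GABA-A genes rose further. Gabra5 (alpha 5, found mainly outside synapses) measured 1.01, 1.24 and 0.854 CPM against 3.44, 4.94 and 3.63, a log2 fold change of 1.95 (SE 0.237, adjusted p = 4.21e-12). The values were low in both groups and did not overlap. Gabrb1 (beta 1) measured 3.47, 2.59 and 3.09 CPM against 4.40, 6.91 and 5.68, a log2 fold change of 0.89 (SE 0.169, adjusted p = 1.76e-06). With PluriSIn#2 replicate 1 alone, the Gabrb1 call was lost (0.53, adjusted p = 0.0536). Gabrb2 (beta 2) measured 3.14, 2.76 and 3.20 CPM against 5.36, 5.10 and 4.75, a log2 fold change of 0.74 (SE 0.167, adjusted p = 4.37e-05). Gabra3 (alpha 3) measured 1.85, 1.24 and 0.747 CPM against 2.77, 2.36 and 2.58, a log2 fold change of 1.01 (SE 0.255, adjusted p = 2.26e-04). Lower still, Gabrg3 (gamma 3) averaged 0.629 CPM in DMSO and 1.68 in PluriSIn#2 (log2 fold change 1.41). Per length, Gabrg1 stood at 10.3 FPKM in DMSO and 7.19 in PluriSIn#2, against 0.36 and 1.01 for Gabrg3. The family sum was 31.3 ± 0.783 FPKM in DMSO and 34.9 ± 0.399 in PluriSIn#2. Within it the share of Gabrg1 went from 32.9% to 20.6% and that of Gabra2 from 24.2% to 19.2%, while Gabrb1 went from 5.03% to 8.89% and Gabra5 from 1.58% to 5.05%.

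GABA-B receptors need both of their subunits at the cell surface. Gabbr1 (chr17:37045966-37075067, plus) measured 128, 130 and 127 CPM in DMSO and 137, 133 and 138 in PluriSIn#2, a log2 fold change of 0.08 (SE 0.0334, adjusted p = 0.018). Gabbr2 (chr4:46662305-46991873, minus) measured 6.55, 5.97 and 3.84 CPM against 3.44, 4.94 and 3.34, a log2 fold change of -0.47 (SE 0.167, adjusted p = 0.00796), with overlapping groups. Both calls were lost in DESeq2, at adjusted p = 0.0787 for Gabbr1 and 0.0627 for Gabbr2. The Gabbr1 call was also lost without DMSO replicate 1 or 3 or PluriSIn#2 replicate 1 or 3 (adjusted p from 0.0501 to 0.0904), and the Gabbr2 call without DMSO replicate 1 (0.102) or PluriSIn#2 replicate 1 (0.0529). Per length, Gabbr1 stood at 27.4 FPKM in DMSO and 30.4 in PluriSIn#2, and Gabbr2 at 1.31 and 0.98.

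Of the 5 glycine receptor genes, 2 passed the filter. Glrb, whose beta subunit anchors the receptor to gephyrin (chr3:80843599-80913660, minus), measured 32.7, 37.0 and 36.1 CPM in DMSO and 29.0, 26.1 and 29.6 in PluriSIn#2, a log2 fold change of -0.32 (SE 0.0637, adjusted p = 3.77e-06). Glra2, the alpha subunit known from immature neurons, averaged 0.572 and 1.60 CPM, a log2 fold change of 1.48. Glra1 and Glra3 had 1 count each in DMSO and none in PluriSIn#2, and Glra4 had 6 and 2.

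Of the 16 nicotinic genes, 4 passed: 2 rose, 1 fell and 1 was not called. Chrna4 (alpha 4; chr2:181018380-181043546, minus), which pairs with beta 2 in the main nicotinic receptor of brain, measured 38.3, 33.9 and 35.4 CPM in DMSO and 16.6, 15.7 and 12.9 in PluriSIn#2, a log2 fold change of -1.25 (SE 0.0744, adjusted p = 8.66e-28). Its partner Chrnb2 (chr3:89746195-89764632, minus) measured 5.15, 5.85 and 3.41 CPM against 9.09, 8.06 and 6.45, a log2 fold change of 0.72 (SE 0.144, adjusted p = 5.47e-06). The genes of this pair therefore moved in opposite directions, though 16.3% of the exonic bases of Chrnb2 are shared with the antisense gene Adar, at 89.0 CPM in DMSO and 80.4 in PluriSIn#2. Chrna7 (alpha 7), which forms channels by itself, measured 4.65, 5.18 and 4.54 CPM against 3.84, 4.33 and 3.52; the groups did not overlap but the gene was not called (log2 fold change -0.29, SE 0.16, adjusted p = 0.084). Chrnb1 (beta 1 of the muscle receptor; chr11:69784036-69795943, minus) measured 2.86, 2.53 and 2.83 CPM against 9.54, 8.01 and 9.79, a log2 fold change of 1.73 (SE 0.148, adjusted p = 9.82e-19). The other muscle subunit genes were nearly silent: Chrnd and Chrng had no read, Chrne 7 and 8 counts and Chrna1 1 and 13 over the DMSO and PluriSIn#2 libraries. Skeletal muscle markers summed to 1.23 to 1.35 CPM in DMSO and 1.19 to 1.98 in PluriSIn#2, none passed the filter, and Myf5 had no read.

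In all, 25 receptor genes did not pass the filter, and none of them exceeded 14 counts in a library. No read was found for Chrna9, Chrnd, Chrng, Gabra6 and Gabrp. Tested without the filter, Chrna1 and Chrnb4 (1 count in DMSO and 13 in PluriSIn#2 for each) were called higher, and Chrna5, with 32 counts in DMSO and 5 in PluriSIn#2, was called lower (log2 fold change -2.56). The summed counts of the remaining genes, DMSO then PluriSIn#2, were 0 and 4 for Chrna10, 0 and 5 for Chrna2, 8 and 10 for Chrna3, 0 and 1 for Chrna6, and 1 and 0 for Chrnb3. For the GABA-A genes they were 2 and 10 for Gabrd, 9 and 22 for Gabre, 16 and 7 for Gabrq, 4 and 8 for Gabrr1, 31 and 17 for Gabrr2, and 1 and 1 for Gabrr3.

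By the authors' FPKM, the most abundant receptor genes in DMSO were Gria2 at 44.7 FPKM, Grik5 at 37.8, Grm5 at 35.8, Gabbr1 at 27.4 and Grm3 at 16.1. In PluriSIn#2 the order was Grik5 at 58.5, Gria2 at 44.9, Gria3 at 30.6, Gabbr1 at 30.4, Gria4 at 22.9 and Grm5 at 21.5. Gria3 and Gabbr1 overlapped between libraries there and cannot be ordered. In DMSO the same holds for the neighbours Glrb, Gria3, Gabrg1 and Grin3a, at 9.99 to 11.2 FPKM. The order depends on the gene length used. In CPM per kb of GENCODE exons the DMSO order was Grm5 at 31.1, Grik5 at 29.3, Gria2 at 20.6, Grm3 at 19.6 and Gabbr1 at 16.5, and in PluriSIn#2 Grik5 came before Gria4 and Gria2.

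By position, 27 of the 68 receptor genes fall into 10 groups with neighbours less than 1000 kb apart. That limit is loose, and the share of all genes meeting it was not counted. On chromosome 5, Gabrg1 (-0.59) and Gabra2 (-0.25) fell while Gabra4 (0.24) and Gabrb1 (0.89), which overlap head to head by 196 bases, rose. On chromosome 11, Gabrb2 (0.74) rose and its neighbour Gabra6 had no read. On chromosome 7, the neighbours Gabrg3 (1.41) and Gabra5 (1.95) both rose. Values in parentheses are log2 fold changes. The tested receptor genes are long, with a median span of 209.3 kb against 24.9 kb for all genes tested with a GENCODE match, and 28 of 43 (65.1%) exceed 100 kb against 15.3%. Spearman's rho between span and log2 fold change, across genes that are not independent replicates, was 0.002 for the 43 receptor genes and -0.05 for the 13878 matched genes.

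The proteins that carry, anchor and supply these receptors were read from 5 lists. Of the 103 partner genes listed, 93 passed, and 51 rose, 32 fell and 10 were not called, with a median log2 fold change of 0.37. These counts, and those of each list, stand beside 41.7% higher and 40.9% lower among all genes tested. Among 20 AMPA and kainate auxiliary genes, 11 rose and 7 fell (median 0.33): Shisa9, an AMPA receptor auxiliary subunit, went from 6.15 to 39.5 CPM (log2 fold change 2.68) and Prrt1 from 6.56 to 24.8 (1.91). Nptx2, a secreted pentraxin that gathers AMPA receptors, fell from 97.7 to 15.8 CPM (-2.63), and Neto1, a kainate receptor auxiliary subunit, from 35.4 to 5.84 (-2.60). Neto1 thus fell in the same libraries as Grik1, Grik2 and Grik3. Of 24 glutamate receptor scaffold genes 15 rose and 7 fell (median 0.40). Among called scaffold genes with at least 5 CPM in the higher group, Dlg2 (PSD-93, 1.95) and Shank3 (1.21) rose most. Dlgap3 (-2.97) and the adhesion gene Nlgn3 (-1.57) fell most. Of 17 tested GABA and glycine partners 7 rose and 7 fell (median -0.04), with Kctd12, a GABA-B auxiliary subunit, at 1.44, Clptm1 at 0.69, Plcl2 at -1.17 and gephyrin, Gphn, at -0.71.

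Of 10 tested nicotinic partners 5 rose and 3 fell (median 0.10), among them Ly6h (2.74), Lrp4, the agrin receptor (1.23), Ly6e (-1.07) and Agrn, agrin itself (-0.85). Of 22 tested genes that make, carry or remove the transmitters, 13 rose and 8 fell (median 0.50). Abat, which breaks down GABA, rose from 137.7 to 737.1 CPM (2.42), and Slc32a1, the vesicular carrier of GABA and glycine, from 1.65 to 8.62 (2.37). Bche, a cholinesterase, fell from 19.8 to 6.85 CPM (-1.54), and Slc1a1, a glutamate transporter, from 10.4 to 5.09 (-1.02).

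Markers of cell types that carry these receptors also differed between the groups. The counts of markers stand beside 41.7% higher and 40.9% lower among all genes tested. All 6 astrocyte markers rose, summing to 1139 to 1165 CPM in DMSO and 2449 to 2500 in PluriSIn#2. All 6 oligodendrocyte precursor markers were called lower, and their sum went from 2892 to 3022 CPM to 2350 to 2421. Among them Gpr17 went from 33.2 to 0.13 CPM. Olig1, the most abundant, barely moved, from 1738 to 1656 CPM (log2 fold change -0.07) with overlapping groups. Of 10 neuroblast and neuron markers 6 rose, 1 fell and 3 were not called; their sum went from 970 to 1023 CPM down to 526 to 536 and Map2 alone went from 892 to 383. The microglial list summed to 0.747 to 1.12 CPM in DMSO, with no read of Trem2, and to 38.2 to 38.7 in PluriSIn#2. Of its 7 markers 5 were tested, with 0 to 15 counts each over the DMSO libraries. These 5 could pass the filter only through their PluriSIn#2 libraries, so their call as higher carries no further information. The endothelial list (4 of 5 rose) went from 2.59 to 2.99 CPM to 23.3 to 26.8. The mural and fibroblast list (6 of 7 rose) went from 23.3 to 23.6 CPM to 174.7 to 179.2. For the ependymal list (4 of 4 tested rose) the sum went from 36.8 to 38.7 CPM to 150.8 to 151.9. Among these risers, Cdh5, Cldn5, Dcn, Lum, Ccdc153 and Pifo had 2 to 7 counts each over the DMSO libraries. They too could pass only through PluriSIn#2, so their direction was fixed by the filter. Oligodendrocyte markers, of which 2 of 5 passed and both fell, summed to 25.1 to 28.9 CPM in DMSO and 17.8 to 19.0 in PluriSIn#2. The part of these markers' cell types in the receptor changes was not tested. In bulk RNA, fewer cells of a type and less RNA per cell cannot be told apart.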

How the data were processed

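The series holds 3 RNA libraries of cells given DMSO and 3 of cells given PluriSIn#2. Titles gave the groups. For PluriSIn#2 replicates 2 and 3 the treatment label carries a different compound number than the title, so replicate 1 was also fitted alone. STAR, HTSeq, DESeq and the build mm10 were used, per the submitters' processing notes; the sources used here do not give versions, annotation or strand setting. The deposited table of read counts per gene is not normalized. The authors scaled the deposited FPKM values by gene length and depth. These values served only for levels, shares and the alternative fit in limma. Their 25 gene names turned into dates were left out.

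Counts were tested in R 4.3.3 with edgeR 4.0.16: filterByExpr, TMM, and the two-sided quasi-likelihood F test on all 6 libraries with group as the only term, with Benjamini-Hochberg adjustment over all 14417 genes tested. CPM use library totals times TMM factors. The code was tested on simulated data. Alternatives were other scalings and filters, DESeq2 1.42.0, limma 3.58.1 on log2(FPKM + 1), a replicate block and leaving out each library. Coordinates are from GENCODE M21 (GRCm38, the build mm10). Values in every library are given for called genes with at least 2 CPM in the higher group and for uncalled ones averaging at least 5 CPM. Of each partner list, the 2 largest rises and the 2 largest falls among called genes with at least 5 CPM in the higher group are named. The single values of 5 receptor genes, which stay in the counts and sums, are not reported here. The symbol rule for the members and the gene lists were chosen with earlier results of these data known. Molecular identifiers are not named in the sources used here, and genes with few counts are measured in coarse steps.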

Additional observations from a re-analysis of the deposited data

How the results depend on the processing

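The count of receptor genes called higher was 22 to 26 and that of genes called lower 11 to 14 over all alternatives. The median log2 fold change of the tested receptor genes, 0.31, was 0.38 on library totals, 0.37 in DESeq2 and 0.068 in limma on FPKM, and 0.25 to 0.41 when 1 library was left out, beside 0.08, 0.04 and 0.04 for all genes on library totals, in DESeq2 and in limma; DESeq2 and limma tested 58 receptor genes instead of 43. Library totals leave out the TMM factors, which were 0.9747 to 0.9775 in DMSO and 1.023 to 1.025 in PluriSIn#2. With that scaling Gria2 changed sign to 0.006, as the median of all genes moved from 0.01 to 0.08. In limma Gria2 stood at 0.005, and the cause there was not tested. Calls of Gabbr1, Gabbr2, Gabra2, Gabrb1, Gria2, Grin2b and Grm4 were lost in at least 1 alternative. With PluriSIn#2 replicate 1 alone, assumed to vary like the DMSO libraries, 22 genes were higher and 12 lower. The numbers do not pair the samples (same-number correlations 0.0134, 0.0293 and -0.0025); with a replicate block 24 were higher and 13 lower, with a median of 0.31. The shares on GENCODE exon lengths, an alternative chosen after seeing the data, were 59.8% and 29.2% for Gria2, 47.6% and 10.04% for Grin2c, and 34.8% and 21.4% for Gabrg1.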
